A study of Mus musculus with 6 samples.

Results

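The genes followed here are 10 markers of liver macrophages, taken from a fixed list of names. They fall into 5 markers of resident Kupffer cells (Clec4f, Timd4, Vsig4, Marco and Cd5l), 2 general macrophage markers (Adgre1 and Cd68) and 3 markers of lipid-associated macrophages (Trem2, Gpnmb and Cd9). They are 10 of the 55385 genes in the count table, and all 10 passed the low-count filter into the 14454 genes tested. The levels come from poly(A) RNA of whole liver in male wild-type C57BL/6 mice, 3 sham-operated and 3 operated by vertical sleeve gastrectomy (VSG, which removes most of the stomach), with 1 mouse per library. The labels give an age of 6 to 8 weeks for all 6 mice, read here as the age when high-fat diet (HFD) feeding began, which the labels do not state outright. All were fed HFD for 10 weeks before the operation and stayed on it for 12 weeks after. About 40 mg of liver was used per library. The comparison asks how macrophage marker RNA in the obese liver differs after VSG. A weight-matched or pair-fed sham group was not analysed here, so the operation and any accompanying difference in body weight or food intake cannot be told apart. The RNA came from unsorted tissue, so fewer cells of a type and less RNA per cell cannot be told apart either.

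Kupffer cells are the resident macrophages of the liver sinusoids. They are seeded before birth, renew locally, and clear bacteria, aged red cells and debris from portal blood. In obese and steatotic livers, some of these embryonic cells are lost and monocytes from the blood take up the empty niche, acquiring Clec4f early and Timd4 late or not at all. A further macrophage state, the lipid-associated or scar-associated macrophage, gathers around fat-laden hepatocytes and carries Trem2, Gpnmb and Cd9. The ratio between such genes is therefore a common way to describe which macrophages a fatty liver holds.

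The 6 libraries held between 22804397 and 24191778 counts. Levels are given as CPM (counts scaled to the size of the library) scaled with TMM factors, which correct for differences in RNA composition, and a count of 3 stood for 0.111 to 0.143 CPM. These floors cover counting error alone, because reads were not tagged with molecular identifiers. The hepatocyte marker Alb reached 61460 ± 17650 CPM in the sham livers and 49970 ± 12260 CPM after VSG (SD, n = 3), so the libraries match their tissue label. At an adjusted p under 0.05 (edgeR's quasi-likelihood test with Benjamini-Hochberg adjustment over all genes tested), 981 genes (6.79%) were higher and 1137 (7.87%) lower after VSG. Scaling by total counts alone moved this split to 486 higher and 1512 lower, and moved the median log2 fold change of all genes from 0.03 to -0.11.

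Of the 5 resident Kupffer cell markers, 4 were higher after VSG: Marco by 31.3 times, Timd4 by 8.21 times, Vsig4 by 2.84 times and Clec4f by 2.35 times as ratios of group means. Neither of the 2 general markers and none of the 3 lipid-associated markers passed the test in edgeR, in DESeq2 or in limma-voom, nor at an unadjusted p under 0.05. The 4 of 10 markers called higher stand beside 6.79% of all genes, and the 0 of 10 called lower beside 7.87%. The median log2 fold change was 1.51 over the 5 resident markers, 0.41 over the 2 general markers and -0.59 over the 3 lipid-associated markers.

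Promoter sequences are shown for the 4 resident markers that rose and for Trem2, the lipid-associated marker with the largest negative value, so that promoters of both kinds of marker can be read side by side. They were taken from RefSeq on GRCm38.p6, which gave a promoter for 9 of the 10 markers. Each runs 5′ to 3′ on the strand of the gene over 300 bases around the start, and the single capital marks the first transcribed base.
Clec4f promoter (chr6:83656067-83656366, minus strand): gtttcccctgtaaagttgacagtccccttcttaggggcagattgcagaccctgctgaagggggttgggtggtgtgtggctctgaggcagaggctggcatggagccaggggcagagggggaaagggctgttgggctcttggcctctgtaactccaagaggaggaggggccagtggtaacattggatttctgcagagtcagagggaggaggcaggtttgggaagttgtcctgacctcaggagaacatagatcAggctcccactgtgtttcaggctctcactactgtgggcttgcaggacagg
Timd4 promoter (chr11:46810549-46810848, plus strand): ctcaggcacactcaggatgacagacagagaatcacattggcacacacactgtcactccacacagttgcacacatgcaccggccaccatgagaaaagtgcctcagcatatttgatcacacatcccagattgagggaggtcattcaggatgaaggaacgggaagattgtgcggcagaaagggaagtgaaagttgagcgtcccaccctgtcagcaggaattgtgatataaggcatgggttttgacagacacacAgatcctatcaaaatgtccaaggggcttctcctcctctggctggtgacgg
Vsig4 promoter (chrX:96293389-96293688, minus strand): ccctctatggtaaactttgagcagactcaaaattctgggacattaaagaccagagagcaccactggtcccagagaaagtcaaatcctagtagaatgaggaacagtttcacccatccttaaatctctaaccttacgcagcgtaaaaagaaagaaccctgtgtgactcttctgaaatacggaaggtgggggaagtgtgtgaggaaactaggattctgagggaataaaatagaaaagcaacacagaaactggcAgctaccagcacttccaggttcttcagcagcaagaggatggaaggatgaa
Marco promoter (chr1:120504975-120505274, minus strand): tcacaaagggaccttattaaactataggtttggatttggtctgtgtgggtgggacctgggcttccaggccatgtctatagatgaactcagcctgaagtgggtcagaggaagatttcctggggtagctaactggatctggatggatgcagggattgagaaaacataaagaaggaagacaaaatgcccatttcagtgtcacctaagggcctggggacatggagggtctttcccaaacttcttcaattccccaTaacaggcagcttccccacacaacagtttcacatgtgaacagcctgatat
Trem2 promoter (chr17:48346151-48346450, plus strand): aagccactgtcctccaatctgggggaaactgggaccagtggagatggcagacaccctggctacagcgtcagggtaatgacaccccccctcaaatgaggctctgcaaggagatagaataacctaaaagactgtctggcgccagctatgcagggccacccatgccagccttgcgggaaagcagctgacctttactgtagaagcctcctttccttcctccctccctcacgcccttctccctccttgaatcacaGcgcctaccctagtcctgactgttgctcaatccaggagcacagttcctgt
PU.1 is the master factor of the myeloid lineage, and MITF and TFE factors drive lysosomal genes including Gpnmb. The PU.1 sequence GAGGAAGT, searched on both strands, was in 3.20% of 32851 mouse promoters of this length, and the palindromic E-box CACGTG of the MITF and TFE family in 7.15%. Neither was in any of the 9 marker promoters, which says only that these letters are not in these windows.

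Clec4f, a C-type lectin restricted to Kupffer cells in the mouse (ENSMUSG00000014542.3, chr6:83644542-83656187 on GRCm38, minus strand), was measured at 93.9, 59.6 and 72.4 CPM in sham replicates 1, 2 and 3. It was at 222, 128 and 180 CPM in VSG replicates 4, 5 and 6. Every VSG liver lay above every sham liver, and the fit gave a log2 fold change of 1.23 with an SE of 0.25 (95% interval 0.64 to 1.82, edgeR adjusted p = 0.0260).

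Timd4 encodes TIM-4, a receptor for phosphatidylserine on dying cells that marks the long-lived, embryonically seeded Kupffer cells (chr11:46810800-46844332, plus strand). Its level was 6.87, 3.29 and 2.55 CPM in the sham livers. In the VSG livers it was 51.5, 14.3 and 38.5 CPM. The lowest VSG liver, replicate 5, was above the highest sham liver, replicate 1. In the fit the log2 fold change was 3.03 with an SE of 0.56 (95% interval 1.69 to 4.37, edgeR adjusted p = 0.0216).

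Vsig4, the complement receptor CRIg that captures opsonized bacteria (chrX:96247203-96293438, minus strand), was at 50.3, 24.3 and 25.6 CPM in the sham livers. The VSG livers were at 123, 59.9 and 102 CPM. The groups did not overlap, although sham replicate 1 came within 10 CPM of VSG replicate 5. The log2 fold change of 1.51 had an SE of 0.37 (95% interval 0.63 to 2.38, edgeR adjusted p = 0.0405).

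Marco, a class A scavenger receptor that binds bacteria and particles and is typical of periportal Kupffer cells (chr1:120474538-120505024, minus strand), showed the widest range. It was at 26.7, 6.30 and 3.91 CPM in the sham livers. It reached 688, 101 and 366 CPM in the VSG livers, where the SD of 294 CPM stood beside a mean of 385 CPM. The groups did not overlap, and the highest liver of each group stood far above the lowest of the same group. The log2 fold change was 4.96 with an SE of 1.02 (95% interval 2.54 to 7.38, edgeR adjusted p = 0.0269).

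Cd5l, the secreted apoptosis inhibitor AIM that lipid-laden macrophages make under LXR control (chr3:87357881-87371073, plus strand), had the highest mean level per length of the 10 markers. It was at 311, 134 and 224 CPM in the sham livers and at 632, 237 and 378 CPM in the VSG livers. VSG replicate 5 fell between the sham livers, so the groups overlapped. Its log2 fold change of 0.90 did not pass the test (SE 0.43, 95% interval -0.12 to 1.91, edgeR adjusted p = 0.189).

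**Figure D1:**
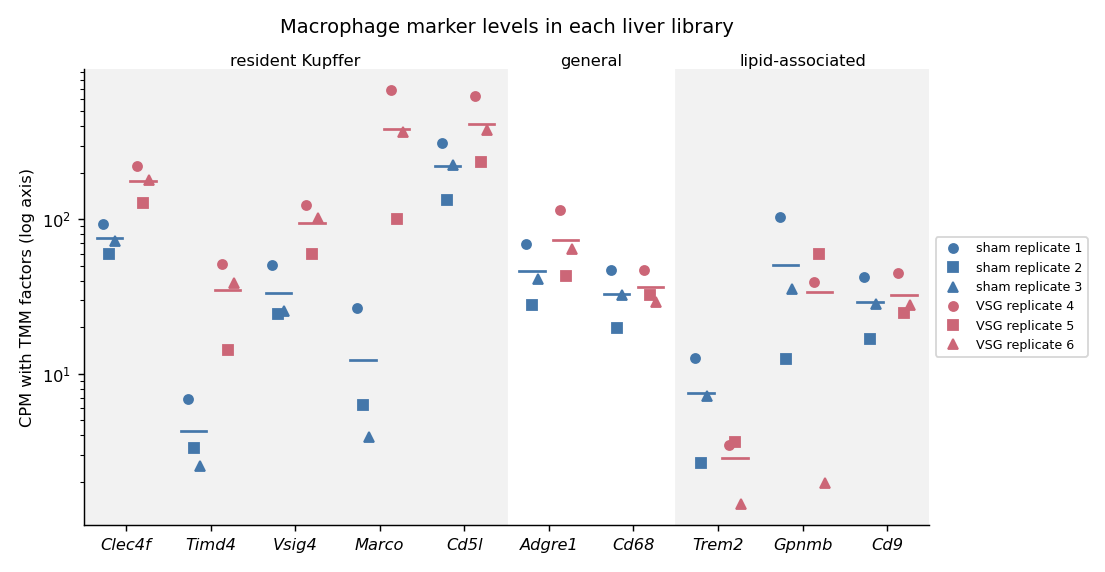
CPM with TMM factors on a log axis for each of the 10 markers in 3 sham libraries (blue) and 3 VSG libraries (red), with symbols for the replicates and lines at the group means. The 3 VSG libraries lie above the 3 sham libraries for Clec4f, Timd4, Vsig4 and Marco, and the groups overlap for the other 6 markers.

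The 4 calls did not hold when some single livers were omitted. All 4 were lost when sham replicate 2 was omitted (edgeR adjusted p 0.0703 to 0.110), when sham replicate 3 was (0.0989 to 0.152) and when VSG replicate 6 was (0.0797 to 0.121). Omitting VSG replicate 4 lost those of Clec4f (0.0513) and Vsig4 (0.0884). The Vsig4 call was lost as well with total-count scaling (0.0603). The log2 fold changes stayed positive in each of these fits, between 1.03 and 1.41 for Clec4f, 2.63 and 3.57 for Timd4, 1.27 and 1.92 for Vsig4, and 4.24 and 6.23 for Marco over the 12 alternatives run. Over all genes, the calls higher and lower were 303 and 494 of 14913 tested without sham replicate 2, 48 and 111 of 14839 without sham replicate 3, 90 and 120 of 14781 without VSG replicate 6, and 495 and 581 of 14707 without VSG replicate 4, against 981 and 1137 of 14454 with all libraries, so the number of calls fell across the whole table in the same fits. All 4 passed in the fits that omitted sham replicate 1 (457 higher and 757 lower of 14814 genes tested) or VSG replicate 5 (1310 and 1422 of 14830). Calls over all genes thus also fell without sham replicate 1, where the 4 markers kept theirs. The plot of adjusted p by omitted library shows where each marker crosses the threshold.

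**Figure D2:**
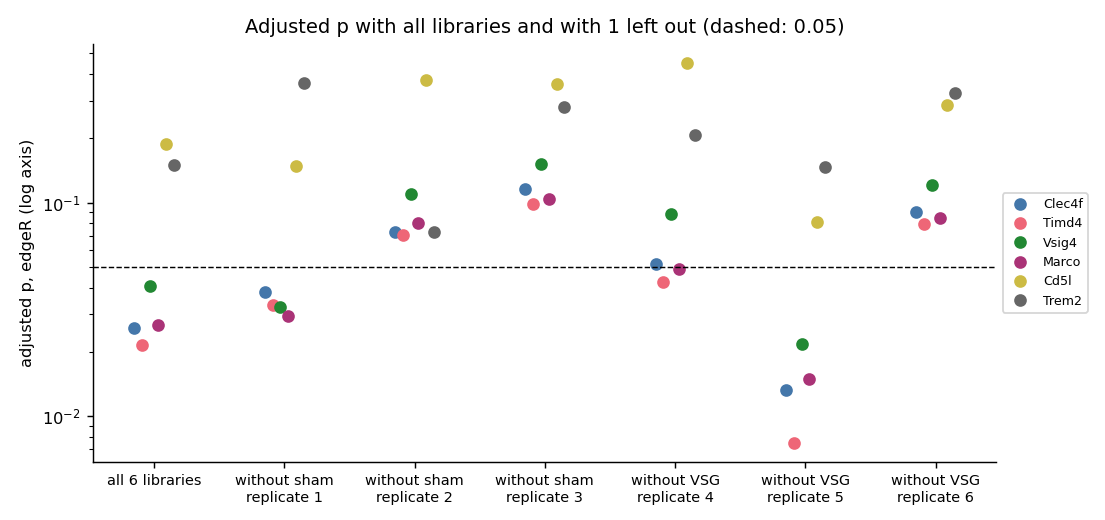
Adjusted p (edgeR, log axis) of Clec4f, Timd4, Vsig4, Marco, Cd5l and Trem2 with all 6 libraries and with each library left out, and a dashed line at 0.05. The 4 resident markers called with all libraries lie above the line in the columns that omit sham replicate 2, sham replicate 3 and VSG replicate 6, while Cd5l and Trem2 lie above it in every column.

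The 2 general markers did not pass the test. Adgre1, the adhesion receptor behind the classical macrophage antigen used in flow cytometry (chr17:57358691-57483527, plus strand), was at 69.2, 28.0 and 41.1 CPM in the sham livers and at 115, 43.3 and 64.0 CPM in the VSG livers. Its log2 fold change was 0.68 (SE 0.44, 95% interval -0.36 to 1.72, edgeR adjusted p = 0.308). Cd68, a lysosomal sialomucin of phagocytes (chr11:69664213-69666153, minus strand), was at 47.2, 19.8 and 32.1 CPM in the sham livers and at 47.1, 32.6 and 29.2 CPM in the VSG livers. Its log2 fold change was 0.13 (SE 0.33, 95% interval -0.64 to 0.91, edgeR adjusted p = 0.795), and -0.04 with total-count scaling. For both genes the groups overlapped.

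The 3 lipid-associated markers gave no call in either direction. Trem2, a lipid and lipoprotein receptor that signals through DAP12 (chr17:48346401-48354147, plus strand), was at 12.7, 2.65 and 7.14 CPM in the sham livers, from 343, 58 and 188 counts. It was at 3.44, 3.63 and 1.43 CPM in the VSG livers, from 76, 85 and 30 counts. Sham replicate 2 lay below VSG replicates 4 and 5, so the groups overlapped even though the sham mean was 2.64 times the VSG mean. The log2 fold change of -1.40 had an SE of 0.59 and a 95% interval from -2.81 to 0.01 (edgeR adjusted p = 0.150). It stayed negative in all 12 alternatives, between -1.80 and -0.80, with adjusted p-values from 0.0656 to 0.364.

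Gpnmb, a transmembrane glycoprotein induced by lysosomal stress in lipid-loaded macrophages (chr6:49036546-49070929, plus strand), was the most uneven marker. It was at 104, 12.6 and 35.5 CPM in the sham livers and at 39.2, 59.7 and 1.96 CPM in the VSG livers. VSG replicate 5 was the second highest of all 6 and VSG replicate 6 the lowest, with 41 counts. The log2 fold change of -0.59 had a 95% interval from -3.20 to 2.02 (SE 1.10, edgeR adjusted p = 0.728), and its sign turned to 0.48 without sham replicate 1. Cd9, a tetraspanin (chr6:125460266-125494791, minus strand), was at 42.4, 16.7 and 28.3 CPM in the sham livers and at 44.8, 24.8 and 27.9 CPM in the VSG livers. Its log2 fold change was 0.15 (SE 0.36, 95% interval -0.71 to 1.02, edgeR adjusted p = 0.788), and -0.03 with total-count scaling. Cd9 is also made by platelets, endothelium and other cells, and 218 of its exon bases lie opposite Gm26728, so its value is less certain than the others.

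**Figure D3:**
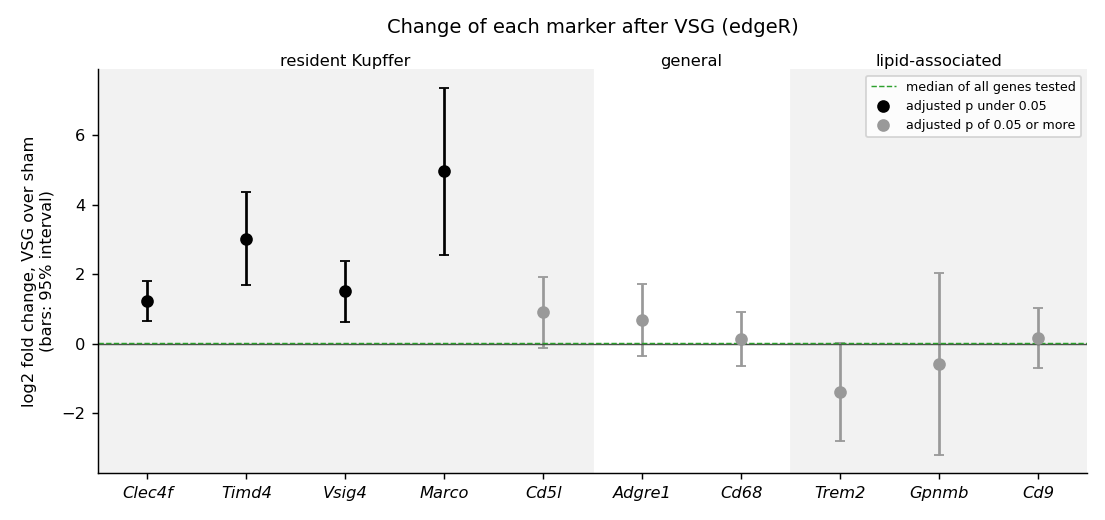
log2 fold change of VSG over sham for each marker from edgeR, with 95% intervals as bars, black points for an adjusted p under 0.05 and grey points otherwise, and a dashed line at the median of all genes tested. The intervals of Clec4f, Timd4, Vsig4 and Marco lie above 0, and those of the other 6 markers include it.

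The VSG libraries all lay above the sham libraries in 4 of the 10 markers, beside 2863 of the 14454 genes tested (19.8%). They all lay below in 0 of 10, beside 2869 genes (19.8%). The order of the libraries within a group was shared by many markers. All 10 markers were highest in sham replicate 1 among the sham livers, a library that was highest for 34.9% of all genes tested, and 8 of 10 were lowest in sham replicate 2 (36.5% of all genes). Among the VSG livers, 8 of 10 were highest in replicate 4 (39.1% of all genes), with Trem2 and Gpnmb highest in replicate 5. All 5 resident markers were lowest in VSG replicate 5 (36.1% of all genes). These shared orders are descriptions of 3 livers per group and the markers are not independent of each other.

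To place each marker against the macrophage RNA of the same liver, its log2 level was set against the mean log2 level of 15 other pan-macrophage genes, such as Csf1r, Lyz2 and Mpeg1. That mean was 5.53, 4.45 and 5.11 in the sham livers and 6.39, 5.02 and 5.77 in the VSG livers on the log2(CPM + 0.1) scale. It was 0.70 higher after VSG on average, and the groups overlapped. Relative to it, Marco was higher after VSG by 4.36, Timd4 by 2.25, Vsig4 by 0.83 and Cd5l by 0.17, all on the log2 scale and with no overlap between groups. For Trem2 the difference was -1.91, again with no overlap. Each of these 5 differences gave a two-sided exact permutation p of 0.1, the smallest that 3 against 3 livers allow, so none can pass 0.05.

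By this relative level 4 of 10 markers were above in all VSG livers, beside 388 of all genes tested (2.68%), and 1 of 10 was below, beside 1757 genes (12.2%). These shares are not a like background. The subtracted mean was 0.70 higher after VSG and ran from 4.45 to 6.39 between libraries. Subtracting it lowers the difference of every gene and adds its spread to genes that do not share it. The share among macrophage genes alone was not computed. Clec4f differed by 0.52 (exact permutation p = 0.2) and its groups overlapped, because sham replicate 2 stood at 1.45 and VSG replicate 4 at 1.40. The remaining differences were -0.03 for Adgre1 (exact permutation p = 0.9), -0.50 for Cd68 (0.3), -0.49 for Cd9 (0.2) and -1.79 for Gpnmb (0.4), with overlap in each. That of Gpnmb ran from -3.05 without VSG replicate 5 to -0.24 without VSG replicate 6. Against Csf1r alone, the receptor for the macrophage growth factors, the difference of Cd5l turned to -0.16, and those of Clec4f and Vsig4 became smaller, at 0.19 and 0.50. Against the same gene, Marco differed by 4.03, Timd4 by 1.92 and Trem2 by -2.24.

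**Figure D4:**
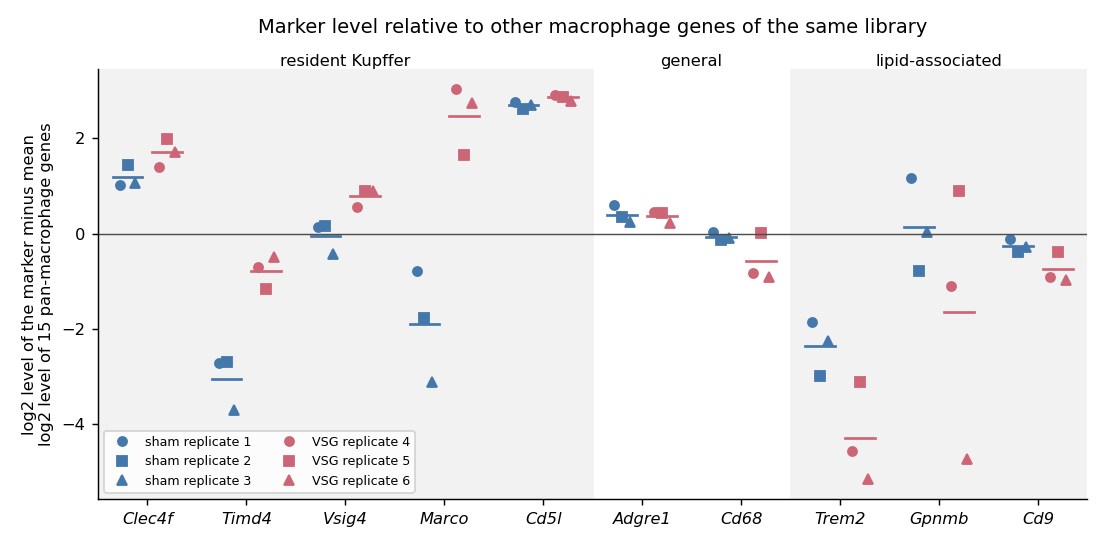
log2(CPM + 0.1) of each marker minus the mean of 15 other pan-macrophage genes in the same library, for 3 sham (blue) and 3 VSG (red) libraries with lines at the group means. Timd4, Vsig4, Marco and Cd5l lie higher in all VSG libraries, Trem2 lies lower in all of them, and the groups overlap for Clec4f, Adgre1, Cd68, Gpnmb and Cd9.

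Ratios of pairs of markers within a liver were computed on a length-corrected scale (FPKM, CPM divided by exon length in kilobases). Trem2 stood at 0.0674, 0.0222 and 0.0493 of Clec4f in the sham livers and at 0.00775, 0.0142 and 0.00397 of it in the VSG livers. All VSG ratios were below all sham ratios, and the mean log2 ratio differed by -2.47. Marco stood at 0.366, 0.136 and 0.0694 of Clec4f in the sham livers and at 3.99, 1.01 and 2.61 of it in the VSG livers. Timd4 stood at 0.0832, 0.0627 and 0.0400 of Clec4f against 0.264, 0.127 and 0.243. Both ratios were higher in every VSG liver than in any sham liver, with mean log2 differences of 3.86 and 1.76. Cd9 over Clec4f was lower in all VSG livers (difference -1.01), while Gpnmb over Clec4f, Gpnmb over Cd68 and Cd68 over Adgre1 overlapped. Of 8 ratios computed, those without overlap gave an exact permutation p of 0.1, the smallest possible, and those over Clec4f share that denominator.

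By group mean per length, Cd5l led the 10 markers in both groups, at 109 ± 43.5 FPKM in sham and 204 ± 98.3 FPKM in VSG livers (SD, n = 3). Cd5l lay above Marco in only 1 of the 3 VSG livers, however. In sham livers Clec4f (30.5 FPKM), Cd68 (26.3) and Vsig4 (22.5) followed, then Cd9 (14.3) and Adgre1 (14.2), Gpnmb (7.77), Marco (6.40), Timd4 (1.95) and Trem2 (1.51). Of the neighbours in this order, Cd5l and Clec4f alone did not overlap between libraries. In VSG livers Marco (200.0 ± 153 FPKM) stood second, before Clec4f (71.5), Vsig4 (64.0), Cd68 (28.9), Adgre1 (22.9), Timd4 (16.0), Cd9 (15.9), Gpnmb (5.16) and Trem2 (0.573). Here Vsig4 and Cd68, and Cd9 and Gpnmb, were the neighbours whose libraries did not overlap. Marco moved from eighth to second place, and Trem2 was last in both groups.

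Among 15 other Kupffer cell genes, 5 were higher and 0 lower after VSG by edgeR, beside 6.79% and 7.87% of all genes tested, with a median log2 fold change of 0.71 against 0.03 over all genes. There were 7 higher by DESeq2, 5 by limma-voom and 8 at an unadjusted p under 0.05, with 0 lower in each. The share of all genes at an unadjusted p under 0.05 was not computed, and it is necessarily larger than the adjusted shares. Counts at that threshold, here and in the lists below, therefore have no background to stand beside. Fcna, a ficolin of the lectin complement pathway, rose from 19.2 ± 2.38 to 62.1 ± 17.4 CPM (log2 fold change 1.70, edgeR adjusted p = 0.00888). Hmox1, which degrades haem, rose from 38.1 ± 10.3 to 165 ± 69.4 CPM (2.11, adjusted p = 0.0163), and Spic, the factor of haem-recycling macrophages, from 2.63 ± 0.60 to 16.4 ± 7.95 CPM (2.63, adjusted p = 0.0168). The haemoglobin-haptoglobin receptor gene Cd163 (3.73, adjusted p = 0.0176) and the folate receptor gene Folr2 (1.16, adjusted p = 0.0393) were the other members called. C1qb, the complement subunit with the highest level per length in this list, was at 73.4 ± 21.2 and 103 ± 38.3 CPM (0.48, adjusted p = 0.330). The list held 0 calls when sham replicate 3 was omitted, 1 when VSG replicate 6 was and 3 when sham replicate 2 was, fits in which 48, 90 and 303 of all genes were called higher.

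None of 15 other pan-macrophage genes passed edgeR's test, against 4 at an unadjusted p under 0.05, 2 by DESeq2 and 0 by limma-voom, and their median log2 fold change was 0.74. The edgeR and DESeq2 counts are near those of all genes, of which edgeR called 6.79% and DESeq2 1516 of 14454 higher. For the 4 at an unadjusted p no such share was computed. Of the 15 genes, 13 had a positive log2 fold change. Lysozyme (Lyz2), the highest of them per length, stood at 144 ± 94.3 CPM in the sham livers and 358 ± 198 CPM after VSG (1.31, edgeR adjusted p = 0.161). Csf1r was at 124, 70.1 and 108 CPM in sham and at 287, 126 and 219 CPM in VSG livers, with no overlap (1.07, adjusted p = 0.0766). Without VSG replicate 5, 4 of the 15 passed. Spi1, which encodes PU.1, was at 13.4, 5.71 and 9.95 CPM against 29.5, 9.32 and 17.9 CPM and overlapped.

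Of 10 other lipid-associated macrophage genes, 1 was higher and 0 lower by edgeR, which is near the 6.79% and 7.87% of all genes tested, and their median log2 fold change was -0.32. By DESeq2 1 was higher and 1 lower, by limma-voom neither direction had a call, and at an unadjusted p under 0.05 there was 1 in each. Fabp5, a fatty acid carrier, was the gene that rose, from 3.0 ± 1.19 to 9.37 ± 4.23 CPM (1.64, edgeR adjusted p = 0.0487). Its highest liver was VSG replicate 5, the VSG liver in which the resident markers were lowest. The list held no call with RLE or total-count scaling, by limma-voom or when sham replicate 1, sham replicate 3, VSG replicate 5 or VSG replicate 6 was omitted, and the Fabp5 call held in 4 of 12 alternatives. Spp1 (osteopontin), the highest of the list per length, was at 147 ± 92.7 and 107 ± 49.6 CPM (-0.45, adjusted p = 0.608). Itgax, which encodes CD11c, was at 22.8, 8.95 and 18.1 CPM in sham and at 7.51, 6.97 and 3.15 CPM in VSG livers, with no overlap (-1.50, adjusted p = 0.0621).

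Of 8 genes for the adaptors, kinases and sheddases of TREM2, 7 were tested and 0 were called by edgeR, with 1 higher at an unadjusted p under 0.05, 1 higher by DESeq2, 0 by limma-voom and 2 when VSG replicate 5 was omitted. With 6.79% of all genes called higher by edgeR, 0 of 7 is near the background. Tyrobp, the DAP12 adaptor that carries the TREM2 signal, stood at 21.6 ± 9.11 CPM in the sham livers and 35.9 ± 15.9 CPM after VSG (0.73, edgeR adjusted p = 0.252), while Trem2 itself had a log2 fold change of -1.40. The median of the 7 was 0.73. Among 9 genes of scavenging and apoptotic cell clearance, Pros1 (protein S, a bridging ligand of MERTK and AXL that hepatocytes also secrete) was the 1 called, from 111 ± 10.2 to 166 ± 22.6 CPM (0.59, adjusted p = 0.0376). This list held 0 calls with total-count scaling and when any library other than VSG replicate 5 was omitted, and 3 when VSG replicate 5 was. It held 2 higher by DESeq2, 1 by limma-voom and 3 at an unadjusted p under 0.05, and its 1 of 9 by edgeR is near the 6.79% of all genes called higher.

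Signals that feed or shape the Kupffer cell niche held 1 lower and 0 higher calls among 10 genes by edgeR and by limma-voom, near the 7.87% and 6.79% of all genes tested. By DESeq2 and at an unadjusted p under 0.05 there was 1 in each direction. Gdf2, which encodes the stellate cell ligand BMP9, fell from 26.5 ± 1.68 to 14.2 ± 3.94 CPM (log2 fold change -0.90, edgeR adjusted p = 0.0321). Bmp10, a related ligand, was at 4.62, 11.1 and 6.88 CPM in sham and at 1.04, 4.45 and 4.25 CPM in VSG livers (-1.21, adjusted p = 0.175), without overlap. The ligands of CSF1R, Csf1 (0.51, adjusted p = 0.234) and Il34 (-0.45, adjusted p = 0.317), did not pass. The count of this list was 0 when any library other than VSG replicate 5 was left out, and 2 without VSG replicate 5.

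Markers of other cells of the liver piece moved in the same libraries. All 12 neutrophil genes were higher after VSG, beside 6.79% of all genes, with a median log2 fold change of 6.98. Their summed level was 15.4, 2.88 and 5.47 CPM in the sham livers and 1870, 155 and 864 CPM in VSG replicates 4, 5 and 6. The summed resident markers had the same order within each group, at 489, 227 and 328 CPM in sham and 1716, 540 and 1064 CPM in VSG livers. Marco had this order among the VSG livers and another among the sham livers. The neutrophil genes included the primary granule protease gene Prtn3 (log2 fold change 7.61, edgeR adjusted p = 0.00177), Retnlg (5.74, adjusted p = 0.0141), and the calgranulins S100a8 (6.85, adjusted p = 0.0166) and S100a9 (6.60, adjusted p = 0.0166). Omitting sham replicate 3 or VSG replicate 6 left 1 of these 12 calls, omitting sham replicate 2 left 2 and omitting sham replicate 1 left 8. Over all genes these fits called 48, 90, 303 and 457 higher, in that order. There were 4 by limma-voom. With at least 10 counts required in every library, the low sham counts left 2 of the 12 to be tested, S100a8 and S100a9, and both were called. In the sham livers Mpo and Ly6g had no count in replicate 2 and Ctsg had none in replicate 3.

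Of 9 monocyte genes, 2 were higher and 0 lower by edgeR, beside 6.79% and 7.87% of all genes (5 higher by DESeq2, 1 by limma-voom, and 6 higher and 0 lower at an unadjusted p under 0.05). The coagulation factor gene F13a1 rose from 1.83 ± 0.82 to 19.8 ± 11.8 CPM (3.43, edgeR adjusted p = 0.0165) and Chil3 from 1.75 ± 1.40 to 56.4 ± 55.2 CPM (4.98, adjusted p = 0.0326). The summed monocyte level was 25.9 to 65.3 CPM in sham and 328, 48.8 and 161 CPM in VSG livers, so VSG replicate 5 lay within the sham range. No monocyte gene was called when sham replicate 2, sham replicate 3 or VSG replicate 6 was omitted, and 5 were when VSG replicate 5 was. The part of these neutrophil and monocyte genes in the levels of Marco and the other resident markers was not tested.

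**Figure D5:**
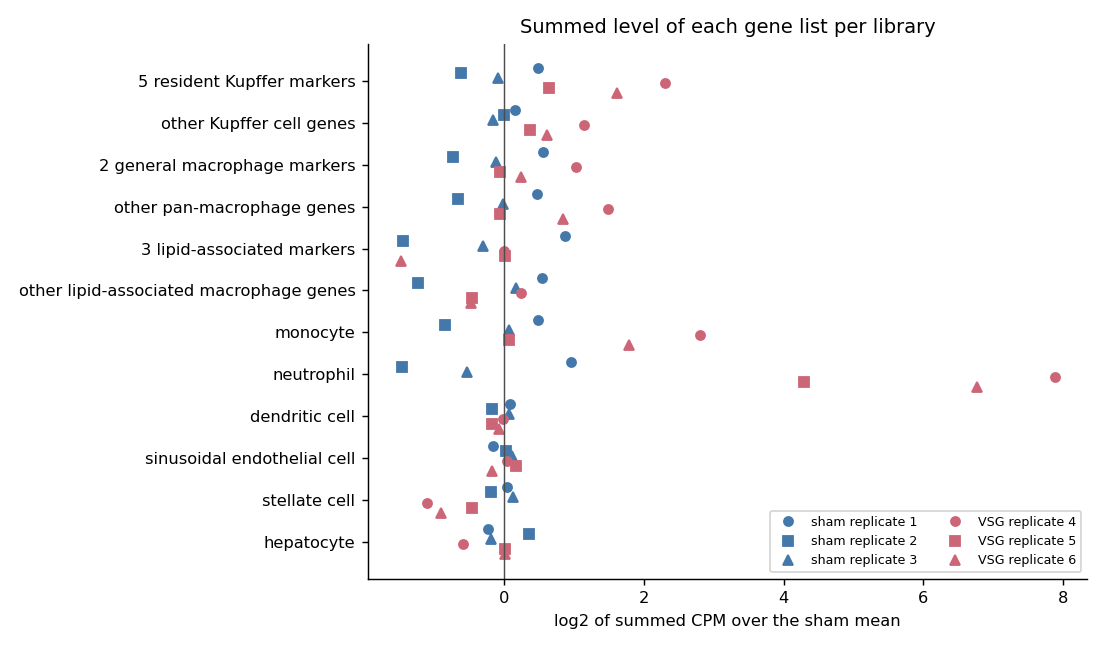
log2 of the summed CPM of each gene list in each library over the mean of the 3 sham libraries, for 3 sham (blue) and 3 VSG (red) libraries. The neutrophil list shows the widest separation, the resident Kupffer markers and other Kupffer cell genes lie higher in all VSG libraries, the lipid-associated lists overlap, and the stellate cell list lies lower in all VSG libraries.

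The other lists held few calls. Of 8 stellate cell genes, 2 were lower and 0 higher, beside 7.87% and 6.79% of all genes (median -0.90, 5 lower by DESeq2, and 6 lower and 0 higher at an unadjusted p under 0.05), namely Colec11 (49.9 ± 5.53 to 23.6 ± 3.19 CPM, log2 fold change -1.08, edgeR adjusted p = 0.00921) and Reln (-1.27, adjusted p = 0.0328), while Dcn did not pass (-0.66, adjusted p = 0.0962). Of 5 B and plasma cell genes tested, the immunoglobulin joining chain gene Jchain rose from 2.39 ± 0.23 to 23.6 ± 1.04 CPM (3.30, adjusted p = 0.000573). Of the peritoneal macrophage genes, Prg4 rose (71.3 ± 11.03 to 249 ± 20.6 CPM, 1.80, adjusted p = 0.00291), the defining factor Gata6 was at 10.9, 11.2 and 11.6 CPM in sham and at 14.2, 13.04 and 12.6 CPM in VSG livers without a call, and Alox15 was below the filter. The plasmacytoid dendritic cell gene Siglech was lower (-1.77, adjusted p = 0.0397), the 1 call among 7 dendritic cell genes, while Clec9a did not pass (0.30, adjusted p = 0.425). The platelet gene Ppbp (3.10, adjusted p = 0.0289) and Sox9 of bile duct cells (1.77, adjusted p = 0.0359) were higher. They were 1 of 3 and 1 of 4 genes tested in their lists, beside 6.79% of all genes. The other bile duct genes tested had negative values without a call, at -0.84 for Krt7, -0.76 for Krt19 and -1.20 for Epcam. Pf4 (0.10) and Itga2b (0.63) of the platelet list did not pass. The Siglech and Ppbp calls were lost when any library other than VSG replicate 5 was omitted, and the Sox9 call when any sham library or VSG replicate 6 was. By limma-voom Ppbp and Sox9 did not pass. The stellate cell list held 0 calls when sham replicate 3 was omitted and 4 when VSG replicate 5 was, while Jchain and Prg4 passed in all 12 alternatives run. No gene of the sinusoidal endothelial (0 of 7, Clec4g 0.18, adjusted p = 0.486), T and NK cell (0 of 7, Nkg7 1.45, adjusted p = 0.167) and hepatocyte lists (0 of 6, Alb -0.30, adjusted p = 0.687) was called by edgeR, with 0, 1 and 1 genes at an unadjusted p under 0.05, 0, 0 and 1 by DESeq2 and 0 in each by limma-voom. Their part in the marker results was not tested.

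Genes whose pattern over the 6 libraries was most like that of a marker were found by the root mean square difference of centred log2 levels, among 12906 genes with a mean of at least 1 CPM. For Clec4f they were Nfkbiz (difference 0.0693), Irf4 (0.0695) and Gm10134 (0.0874). Marco was followed at a greater distance by the neutrophil gene Retnlg (0.531), by Olfr16 (0.556) and by Itgb2l (0.560). In the sham livers Retnlg was at 0.52, 0.18 and 0.23 CPM and Olfr16 at 0.22, 0.046 and 0.076 CPM. Itgb2l was at 0.11, 0 and 0 CPM there. The log2 values of levels this low depend on the added 0.1 CPM. For Trem2 they were Emp1 (0.195), Itgax (0.291) and Pkp1 (0.302). Emp1, an epithelial membrane protein gene, was at 20.4, 5.67 and 16.8 CPM in sham and at 8.05, 8.55 and 3.43 CPM in VSG livers. Gpnmb had 1 near neighbour, the macrophage elastase gene Mmp12 (0.478), at 100.5, 17.4 and 34.3 CPM in sham and at 20.5, 50.4 and 2.77 CPM in VSG livers, and then a gap to Lox (1.06) and Megf6 (1.07). With 6 libraries such likeness is a description of these livers.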

How the data were processed

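The authors prepared strand-specific libraries from poly(A) RNA of 3 sham and 3 VSG mouse livers, aligned reads with STAR 2.6.0 to mm10 and counted them with featureCounts 2.0.3, per the submitters' processing notes. The deposited values are raw read counts per gene with exon lengths. The annotation, the strand option and the treatment of shared reads are not given in the sources used here, so overlapping and antisense genes are uncertain. Of 55385 genes, 54487 had the identifier, version, start and end of GENCODE M21, which gave symbols, and 241 were not matched.

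The test was edgeR 4.0.16 under R 4.3.3 (glmQLFit, glmQLFTest, TMM factors from 0.897 to 1.15, filterByExpr with a minimum count of 10 and a minimum total of 15, group as the only term, Benjamini-Hochberg adjustment over 14454 genes, threshold 0.05). The self-test used simulated counts. FPKM divides CPM with TMM factors by exon length. Levels relative to macrophage genes used log2(CPM + 0.1) and two-sided exact permutation tests. No pair of libraries within a group agreed within counting noise (chi-square per degree of freedom at least 25.2). Replicate numbers are not shared between groups, so nothing was paired.

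Alternatives were DESeq2 1.42.0, limma-voom (limma 3.58.1), RLE size factors, total counts, a filter of 1 count in all, a filter of 10 counts per library, leaving out each library, and for relative levels Csf1r or Adgre1 alone and a pseudocount of 0.5 CPM. The members and lists were chosen with earlier results of these data known. Named genes were all 10 markers and, from each other list, up to 3 genes with the smallest adjusted p past the threshold and the gene with the highest mean FPKM, plus the 3 genes most like Clec4f, Marco, Trem2 and Gpnmb. Cd163, Folr2, Spi1, Itgax, Bmp10, Csf1, Il34, Gata6, Alox15, Mpo, Ly6g, Ctsg and Mpeg1 were named after their values were seen. A gene of the lists and 1 further motif, searched beside the PU.1 and E-box sequences, are not reported here.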

Additional observations from a re-analysis of the deposited data

How the results depend on the processing

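The 4 markers called higher were also called with DESeq2, limma-voom, RLE size factors, no filter and at least 10 counts in every library, and 3 of them with total counts. Leaving out 1 library gave between 0 and 4 called markers. Over all genes, calls in the same fits ran from 48 higher and 111 lower (without sham replicate 3) to 1310 and 1422 (without VSG replicate 5). Of the 133 genes tested in the other lists, 29 were called in either direction, 25 higher and 4 lower, beside 6.79% and 7.87% of all genes. The count was 17 with limma-voom, 18 with at least 10 counts in every library (a filter that leaves 10 of the 12 neutrophil genes untested), 43 with DESeq2 and between 3 and 42 with 1 library left out, at 3 without sham replicate 3 and 42 without VSG replicate 5. Markers whose relative level did not overlap between groups numbered 5, and between 5 and 8 with 1 library left out. Groups with fewer libraries separate more easily, and the share of all genes in those fits was not computed. The higher counts are therefore no added support. Marker signs turned for genes without a call. With total counts the log2 fold change of Cd68 became -0.042 and that of Cd9 -0.028. With 1 library left out it ran from -0.13 (without sham replicate 2) to 0.47 for Cd68, from -0.15 (without VSG replicate 4) to 0.52 for Cd9 and from -1.33 to 0.48 (without sham replicate 1) for Gpnmb. Apart from that filter, the cause was not tested. A fit that leaves out 1 library has fewer samples, and 3 livers per group cannot give an exact permutation p below 0.1. No paired analysis was possible because the groups share no replicate number. Depth limits Trem2 most, with 30 counts in its lowest library.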

Other observations

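Cd163 did not follow the library order of the 5 resident markers. It was at 2.14, 11.1 and 5.74 CPM in the sham livers and at 71.7, 47.8 and 130.4 CPM in the VSG livers, so that its highest liver was VSG replicate 6 and its lowest was sham replicate 1, where all 10 markers were highest among the sham livers. Cd163 was singled out after its values were seen.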
